A study of Homo sapiens with 2 samples.

Results

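The HOX genes encode homeodomain transcription factors that give cells their position along the head-to-tail axis, and in humans they stand in 4 clusters on 4 chromosomes. The peaks described here are those of tagged TET1 that overlap these clusters by at least 1 base. The clusters were chosen with earlier results of these data known. Within them the peaks were taken by position alone, from 4 windows on hg19: HOXA at chr7:27120001-27250000, HOXB at chr17:46600001-46820000, HOXC at chr12:54320001-54460000 and HOXD at chr2:176940001-177060000. The windows span 610 kb in all. They held 77 peaks of the 46207 on the 24 human chromosomes (46208 in the whole list), with 20 in HOXA, 28 in HOXB, 16 in HOXC and 13 in HOXD.

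The cells were cardiac progenitors on day 7, made from the H1 human embryonic stem cell line with TET1 tagged by V5 at its own locus. Both libraries, 1 V5 ChIP and 1 input, came from such cells, which had been given CHIR99021, an activator of WNT signalling, at 6 µM up to day 2. From day 3 until day 5 they had IWP2, which blocks WNT secretion, at 5 µM. The sample labels nevertheless give the genotype as wild type, and a V5 ChIP of untagged cells was not analysed here. Markers of cardiac progenitors could not be checked, since no expression was measured. The values are peaks of the ChIP library over input with the authors' score for each peak, which runs from 50 to 3233.06 in the list and has no stated unit. Scores of 3100 or more are here called the ceiling. The reads behind a peak were not used, so depth is unknown, and with 1 library per group no value below has a replicate. Intervals given below cover counting error only and treat neighbouring peaks as independent.

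TET1 is a dioxygenase that oxidises methylated cytosine, and its CXXC domain binds DNA with unmethylated CpG dinucleotides. Within a HOX cluster the genes are numbered by paralogue group, low numbers at the anterior end and high numbers at the posterior end, and they are activated during development in roughly that order. In embryonic stem cells the clusters are known as large polycomb domains rich in CpG islands. Genes of the anterior groups, such as HOXB1 and HOXA2, act in the hindbrain, the neural crest and, for some of them, the progenitors at the venous pole of the heart. The middle groups, such as HOXA5, HOXB6 and HOXC8, pattern the trunk, and HOXA13 and HOXD13 pattern the digits and the genital and urinary tract.

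All 38 genes named for the 4 clusters were found in a RefSeq gene table of GRCh38.p14, each on the chromosome of its window, and their order there followed their group numbers from the anterior end stated for each cluster. The table was used for names and order only. Since the peaks are on hg19, no peak is assigned to a gene below, and positions are given on hg19 and as distances from the anterior edge of a window. RefSeq promoter sequences on GRCh38.p14 were at hand for 20 of the 38 genes (26 distinct sequences). HOXA supplied 16 of the 26, among them 7 starts of HOXA3, HOXD supplied 8, and HOXB and HOXC 1 each. In the 250 bases before the start these held a median of 19.5 CpG dinucleotides (quartiles 11 and 25.5), where 34788 promoters of the whole table had a median of 11 (quartiles 3 and 23). At least 1 CpG stood in 96.2% of the HOX promoters and in 93.9% of the table, while 20 or more stood in 13 of the 26 and in 32.5% of the table. The letters searched were CG, which reads the same on both strands.

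The promoters with most and fewest CpG dinucleotides among HOXA and HOXD genes that have a single start in the table are shown because CpG-rich DNA is what the CXXC domain binds. Each is written 5′ to 3′ in lower case with every CpG in capitals. HOXA13 (chr7:27200092-27200341, minus strand, GRCh38.p14) holds 40 CpG dinucleotides and HOXA2 (chr7:27102684-27102933, minus strand) holds 8. HOXD1 (chr2:176188418-176188667, plus strand) holds 31 and HOXD4 (chr2:176151300-176151549, plus strand) holds 4.
HOXA13: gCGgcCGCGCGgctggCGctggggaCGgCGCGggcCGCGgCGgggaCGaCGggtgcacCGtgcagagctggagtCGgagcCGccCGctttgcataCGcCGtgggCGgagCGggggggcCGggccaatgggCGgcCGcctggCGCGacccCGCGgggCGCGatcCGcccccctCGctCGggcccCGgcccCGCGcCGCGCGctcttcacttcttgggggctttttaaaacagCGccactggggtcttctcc
HOXA2: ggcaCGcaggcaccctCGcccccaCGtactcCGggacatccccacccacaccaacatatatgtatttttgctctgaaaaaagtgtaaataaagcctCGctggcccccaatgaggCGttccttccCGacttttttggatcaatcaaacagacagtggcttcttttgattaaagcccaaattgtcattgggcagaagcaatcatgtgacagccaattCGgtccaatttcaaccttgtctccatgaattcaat
HOXD1: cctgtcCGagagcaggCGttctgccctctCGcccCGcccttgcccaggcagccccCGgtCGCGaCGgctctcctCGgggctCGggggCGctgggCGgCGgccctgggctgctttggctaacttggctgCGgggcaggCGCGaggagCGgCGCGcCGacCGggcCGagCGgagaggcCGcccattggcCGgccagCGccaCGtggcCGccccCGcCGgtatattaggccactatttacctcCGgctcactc
HOXD4: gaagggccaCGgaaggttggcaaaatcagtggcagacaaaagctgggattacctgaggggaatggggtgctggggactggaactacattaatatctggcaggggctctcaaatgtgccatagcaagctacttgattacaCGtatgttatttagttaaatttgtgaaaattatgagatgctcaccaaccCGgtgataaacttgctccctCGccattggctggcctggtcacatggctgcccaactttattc
The 2 CpG-rich promoters belong to genes at opposite ends of their clusters, HOXA13 at the posterior and HOXD1 at the anterior end. Whether a TET1 peak lies on any of them was not tested, for want of a common build.

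All 4 HOX windows were densely covered by TET1 peaks. Peaks took up 26.1% of the HOXA window (33876 bp), 24.3% of HOXB (53562 bp), 18.9% of HOXC (26489 bp) and 19.2% of HOXD (22990 bp), or 22.4% of the 4 together. In number this was 15.4 peaks per 100 kb in HOXA (95% Poisson interval 9.40 to 23.8), 12.7 in HOXB (8.46 to 18.4), 11.4 in HOXC (6.53 to 18.6) and 10.8 in HOXD (5.77 to 18.5). These intervals overlap, so the order of the clusters is not resolved. The rest of chromosomes 7, 17, 12 and 2, measured from first to last peak, had 1.48, 3.89, 1.46 and 1.24 peaks per 100 kb, each below the interval of its HOX window. Neither this rest nor the tiles below were matched to the windows for gene or CpG content. How far such content goes with the difference was not tested.

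When every chromosome was cut into tiles as long as the window, and tiles touching a HOX cluster were left out, the median tile held 1 peak and was covered for 0.822% at a length of 130 kb and 1.00% at 220 kb. Tiles with at least as many peaks as the window made up 0.571% of 23101 for HOXA, 0.924% of 13643 for HOXB, 1.83% of 21447 for HOXC and 2.44% of 25029 for HOXD. Tiles covered at least as much made up 1.57%, 1.52%, 3.02% and 3.12%. The HOX windows were thus among the denser stretches of the list without being its densest: 132 tiles held at least as many peaks as HOXA and 610 at least as many as HOXD.

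The density fell off outside most edges. Stretches as long as the window on either side were covered for 0% to 18.4%, less than the window in 8 of 8 cases. Next to HOXA, the anterior flank held no peak in 130 kb, and the nearest peak on that side ended 215 kb before the window. The posterior flank of HOXC likewise held none in 140 kb. HOXD had 2 peaks on each side, with 2.02% covered in the anterior and 2.86% in the posterior flank. HOXB had 3.51% and 9.17%. The anterior flank of HOXC was the exception: it held 14 peaks and was covered for 18.4%, close to the 18.9% of HOXC itself, so the dense stretch did not end at that edge.

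**Figure D1:**
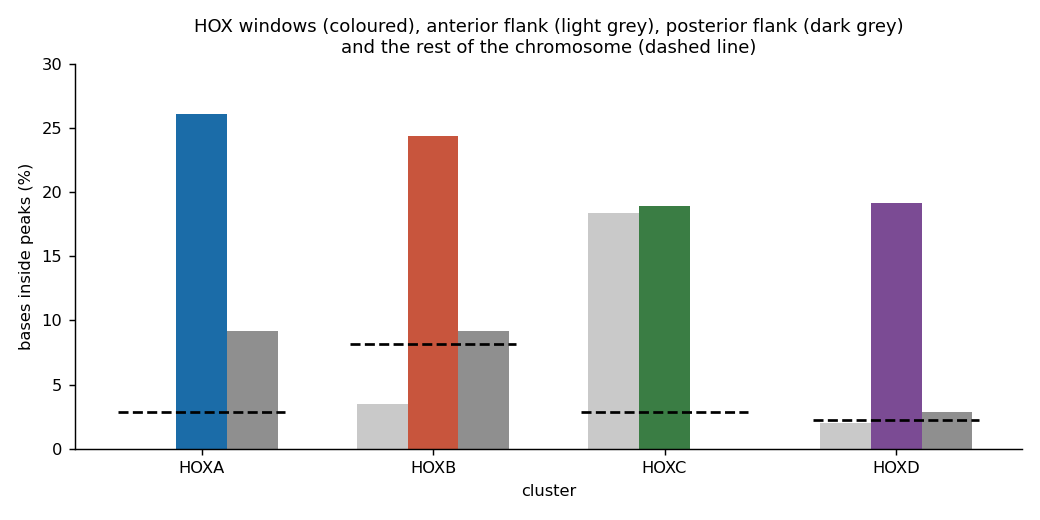
Percent of bases inside TET1 peaks (vertical axis) in each HOX window (coloured bars), in stretches of the same length on its anterior side (light grey) and posterior side (dark grey), and over the rest of the chromosome (dashed line). The windows lie between 18.9% and 26.1%, and the only flank near its window is the anterior flank of HOXC, at 18.4%.

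Although dense, the HOX peaks were of low to middling score. None of the 77 was at the ceiling, where 4.69% of all peaks stood; 0 of 77 allows a share of up to 3.90% by a limit of 3 counts and 4.75% by the Wilson interval, so at the ceiling alone the difference is at the edge of counting error. A single HOX peak, in HOXB, scored 1000 or more (1.30%, Wilson interval 0.230% to 7.00%), against 18.6% of all peaks. Scores below 100 were carried by 29 HOX peaks (37.7%, 27.7% to 48.8%), and the share over the list was 32.9%, inside that interval. The class from 100 to 300 held 32 HOX peaks (41.6%, 31.2% to 52.7%), against 29.2% of the peaks outside the HOX windows. From 300 to 1000 there were 15 (19.5%, 12.2% to 29.7%), beside 19.2% outside. The flanks of the windows, with at most 14 peaks each, also held no peak at the ceiling, so its absence was not particular to the windows. Only the posterior flank of HOXB (1493.2) and the anterior flank of HOXC (1109.66) held a peak scoring 1000 or more, 1 each.

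The middle of the distribution differed less than the top. The median HOX score was 128 (quartiles 76.7 and 263), and the median of the list was 172 (82.4 and 659). The upper 50% of the list by score held 32 HOX peaks, and its top 25% held 4. By cluster the median score was 127 in HOXA, 148 in HOXB, 103 in HOXC and 164 in HOXD. The highest score was 807 in HOXA, 1716.62 in HOXB, 379.74 in HOXC and 815.02 in HOXD, and 11.2% of the list scored above the HOXB value and 33.6% above that of HOXC.

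**Figure D2:**
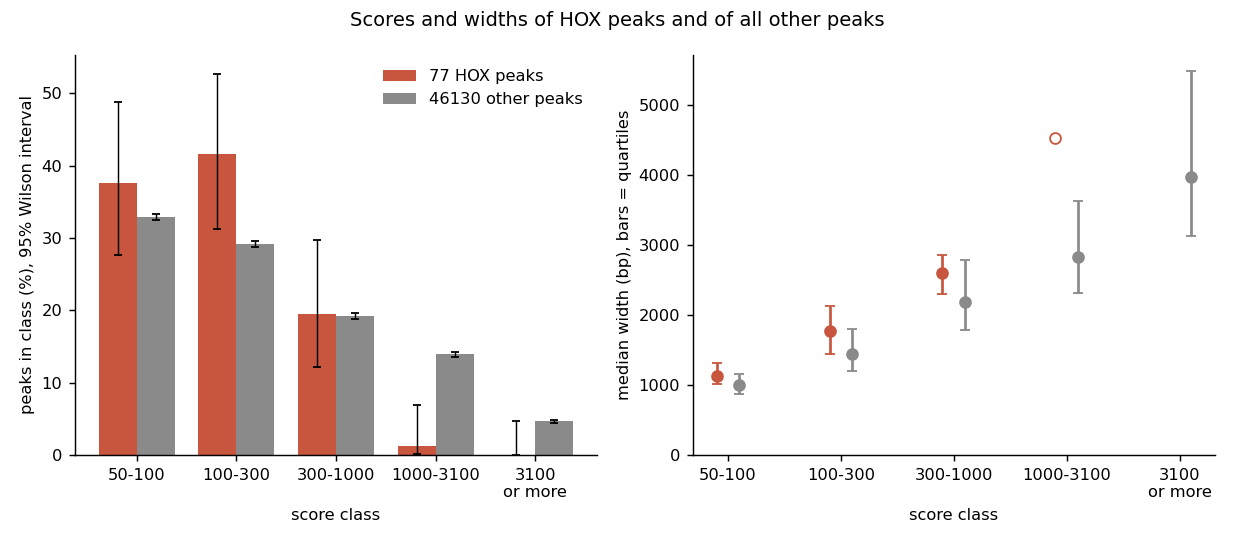
Left, percent of peaks in 5 score classes (bars with 95% Wilson intervals) for the 77 HOX peaks and the 46130 other peaks. Right, median peak width in bp for each class, with bars from the lower to the upper quartile and an open circle for the single HOX peak scoring 1000 to 3100. HOX peaks are missing from the highest class and nearly so from the class below it, and within the 3 lower classes their medians lie above those of the other peaks.

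The highest score in each HOX window was set beside that of tiles at least as dense. Of the 363 tiles covered at least as much as HOXA, 244 (67.2%) held a peak at the ceiling. In 4 (1.10%) the highest score was no greater than the 807 of HOXA. For HOXB it was 168 of 207 tiles (81.2%) with a peak at the ceiling, and 9 (4.35%) with a highest score no greater than its 1716.62. For HOXC it was 384 of 647 (59.4%), and 2 tiles (0.309%) stayed at or under its 379.74. For HOXD it was 443 of 782 (56.6%), and 34 (4.35%) stayed at or under 815.02. Among tiles with at least as many peaks as the window, the share with a peak at the ceiling was 59.8% for HOXA, 74.6% for HOXB, 55.2% for HOXC and 48.5% for HOXD. Those with a highest score no greater than the window's were 1 of 132 (0.758%), 10 of 126 (7.94%), 4 of 393 (1.02%) and 53 of 610 (8.69%). A tile with many peaks has many chances to hold 1 at the ceiling. Choosing tiles by the bases covered also favours wide peaks, and over the list width rose with score (Spearman's rho 0.861). High scores in the tiles chosen by cover are thus partly built in. How far the number of peaks or this choice sets the shares was not tested.

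**Figure D3:**
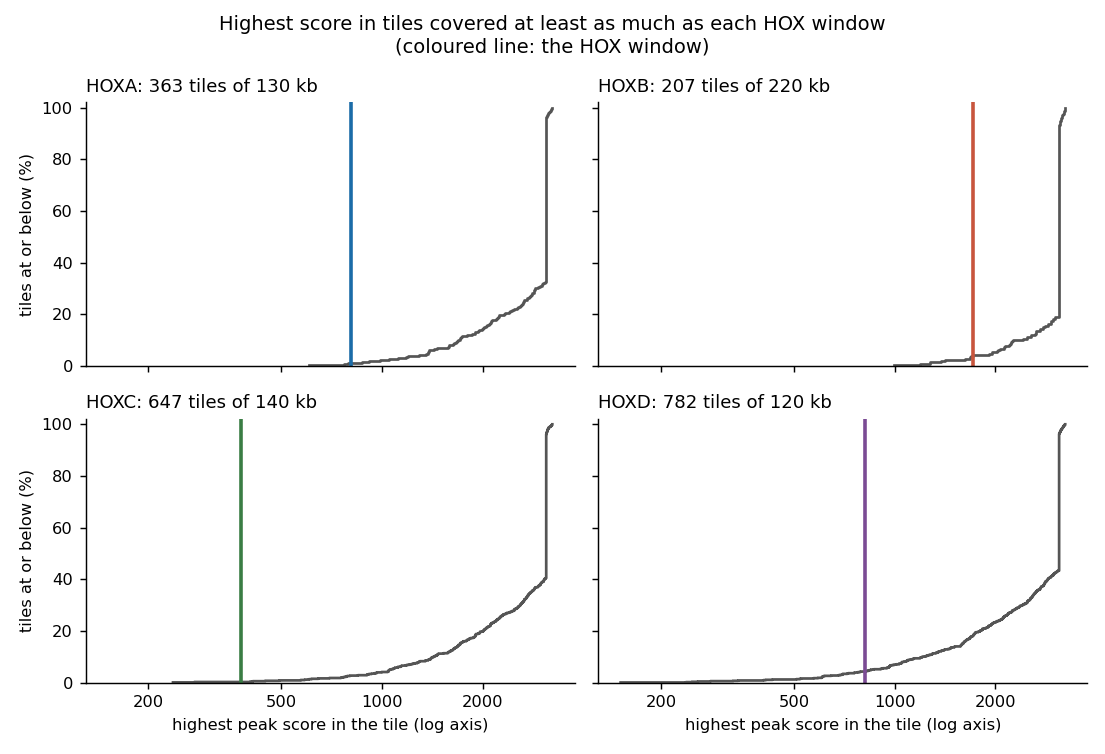
For each cluster, the cumulative percent of tiles (vertical axis) by the highest peak score they hold (horizontal log axis), over all tiles of the window's length that are covered at least as much as it; the coloured line marks the HOX window. The lines of HOXA and HOXC cross the curve at 1.10% and 0.309%, and most of each curve rises at 3100.

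HOX peaks were of ordinary width in the list as a whole but wide for their score. Their median width was 1631 bp, against 1531 bp for all peaks, and 41 of the 77 were wider than that. None reached 5 kb, a width that 3.20% of all peaks had; 0 of 77 allows up to 3.90%, so a difference from the list was not detectable at this number of peaks. In the class from 50 to 100 the HOX median was 1132 bp (95% interval 1025 to 1279) and that of the other peaks 1004 bp. From 100 to 300 it was 1770 bp (1510 to 1984) against 1442 bp, and from 300 to 1000 it was 2595 bp (2253 to 2998) against 2189 bp. Each of these 3 intervals lies above the median of the other peaks. Across the 77 HOX peaks Spearman's rho of width and score was 0.840, a description over peaks of 1 library whose widths and scores come from the same call.

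HOXB carried most of its peaks in the anterior part. Cut at the middle of its window, the anterior 110 kb were covered for 42.1% and held 22 peaks (Poisson interval 13.8 to 33.3). The posterior 110 kb were covered for 6.57% and held 6 (2.20 to 13.1). The cut was by length, and which HOXB genes lie on each side of it was not tested. The contrast is thus between stretches of the window and not between anterior and posterior genes. The first 5 steps of 22 kb were covered for 43.4%, 52.9%, 44.6%, 34.6% and 35.2%, and the last 5 for 8.27%, 0%, 4.50%, 8.07% and 11.99%. Median scores were 192 in the anterior and 82.6 in the posterior part, and no posterior HOXB peak scored above 135.03.

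The strongest HOX peak of all stood in this anterior stretch, 20.7 kb from its edge. It was at chr17:46618406-46622940, was 4535 bp wide and scored 1716.62. Next in HOXB came chr17:46653087-46656765 with a score of 802.18 (3679 bp), 54.9 kb from the edge. The peak at chr17:46603443-46605576 scored 642.31, and that at chr17:46631350-46634077 scored 551.09. The first HOXB peak, chr17:46599038-46600313 with a score of 199.99, reached past the anterior edge of the window.

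Long peak-free intervals lay in posterior HOXB. The longest of all 4 clusters ran over 39325 bp, from chr17:46756340 to 46795664, and the next over 30718 bp. A weak peak of 991 bp with a score of 59.91 (chr17:46755349-46756339) stood alone between them. Beyond the longer interval, 3 peaks with scores of 126.88, 62.09 and 103.07 made up the posterior end. As background, HOXB has no genes of groups 10 to 12, and HOXB13, a gene of prostate and hindgut, lies apart from HOXB9, with a long stretch between them. Whether these intervals, or the sparse posterior side as a whole, coincide with that stretch was not tested.

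HOXC was also covered more on its anterior side as deposited, but the difference shrank as lower-scoring peaks were left out. It was 13.9 percentage points with all peaks, 9.26 with peaks scoring 100 or more and 2.44 with the upper 50% by score. HOXB kept 30.8 of its 35.6 in the upper 50%. The anterior 70 kb were covered for 25.8% (11 peaks, Poisson interval 5.49 to 19.7) and the posterior 70 kb for 12.0% (5 peaks, 1.62 to 11.7), and these intervals overlap. The fullest stretch was the fifth of its steps of 14 kb, covered for 50.5%. The longest peak-free interval was 23423 bp (chr12:54355835-54379257), between peaks scoring 69.24 and 58.49. HOXC had no strong peak: its highest was chr12:54426361-54428958 (2598 bp, 379.74), followed by chr12:54387512-54390500 with 271.84, chr12:54402114-54403774 with 263.17 and the posterior-most peak, chr12:54331816-54334081, with 252.07. Its widest was the anterior-most, chr12:54445441-54448497, with 3057 bp. That peak scored 161.53, just under the 172.26 at which the upper 50% begins. HOXC genes run from HOXC4 to HOXC13, a gene of hair and nail, and the cluster has no genes of groups 1 to 3.

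HOXA and HOXD leaned the other way, with more cover on the posterior side. In HOXA the anterior 65 kb were covered for 19.0% (8 peaks, 3.45 to 15.8) and the posterior 65 kb for 33.1% (12 peaks, 6.20 to 20.96). In HOXD the anterior 60 kb were covered for 13.5% (6 peaks, 2.20 to 13.1) and the posterior 60 kb for 24.9% (7 peaks, 2.81 to 14.4). In both clusters the intervals overlap, so neither tilt exceeds counting error. Only in HOXB did the intervals of the 2 sides not overlap, and there the share of genes on each side was not tested.

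Peaks in posterior HOXA stood at short and fairly even spacing. The last 4 steps of 13 kb were covered for 40.4%, 40.2%, 33.8% and 39.8%, and gaps between the 12 posterior peaks ran from 2069 to 4425 bp. The strongest HOXA peak was near the posterior end, at chr7:27237747-27240744, with a score of 807 and a width of 2998 bp. It was also the widest of the cluster. Only 2 peaks followed it, with scores of 212.45 and 98.66, and the last of them (chr7:27249705-27250789) reached past the edge. On the anterior side the highest were chr7:27169543-27171178 with 370.36 and the anterior-most peak, chr7:27134580-27137251, with 354.94. The first 14.6 kb of the window, before that peak, held none. The longest gap between neighbouring HOXA peaks, 11609 bp (chr7:27183897-27195505), was near the middle, between peaks scoring 127.66 and 120.28.

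**Figure D4:**
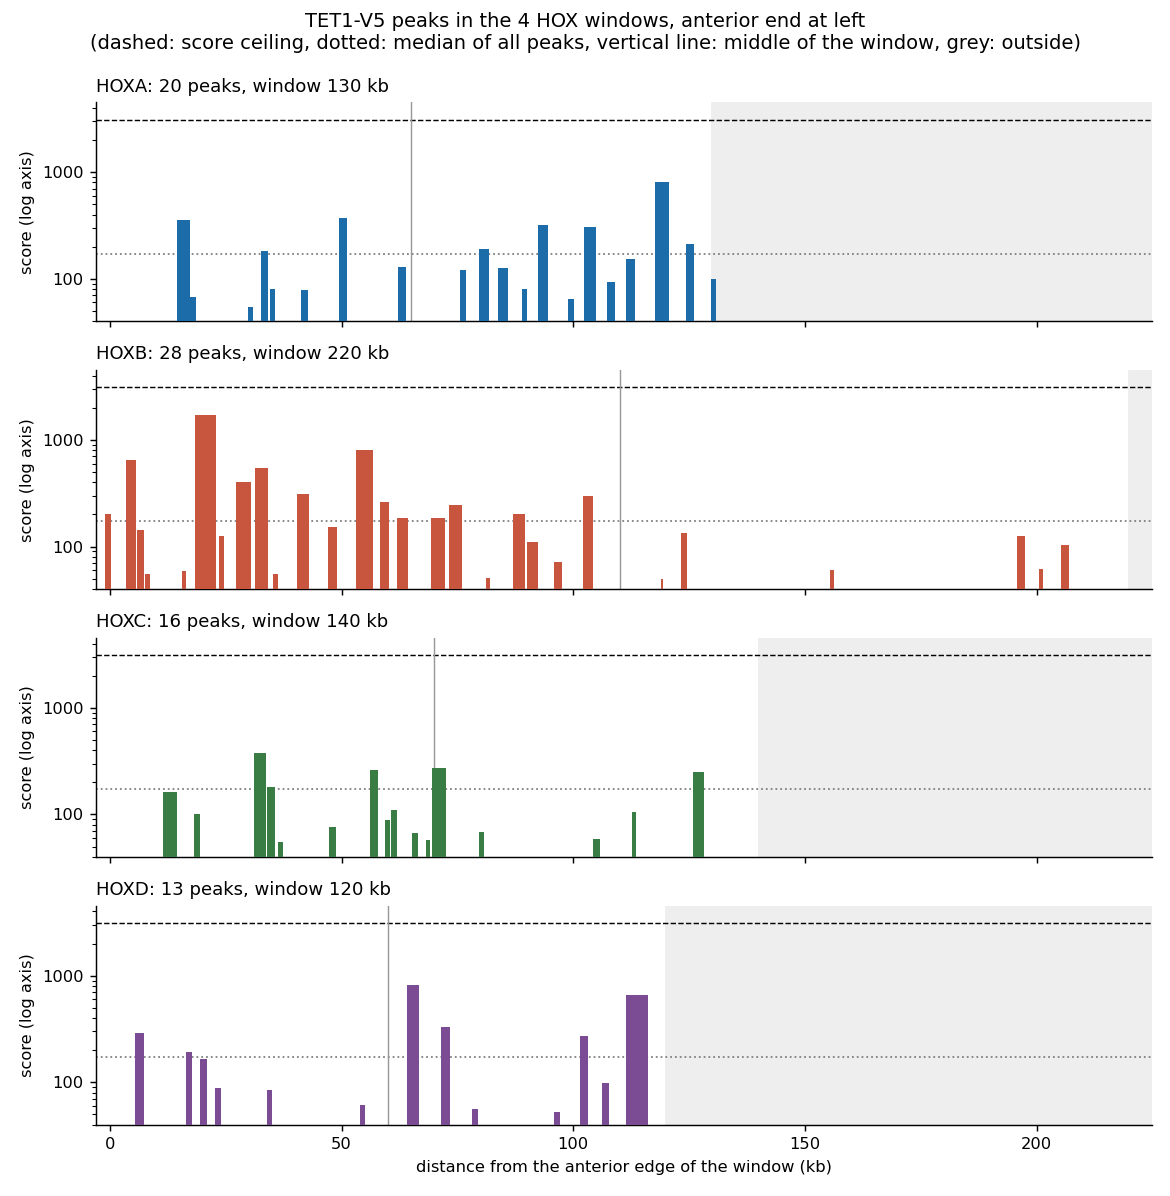
Each bar is a TET1 peak, drawn to scale along the window from its anterior edge (horizontal axis, kb) with the authors' score as its height (log axis); the dashed line is the ceiling of 3100, the dotted line the median score of the list (172) and the vertical line the middle of the window. Tall bars crowd the anterior part of HOXB, up to 1716.62, whereas the tallest bars of HOXA (807) and HOXD (815.02) lie on the posterior side.

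HOXD held the fewest peaks. The 4 HOX peaks in the top 25% of the list were the highest of HOXD, the highest of HOXA and 2 in HOXB. The highest of HOXD was at chr2:176993202-176995794, with a score of 815.02 and a width of 2593 bp, 65.5 kb from the anterior edge. Its widest, and the widest of all HOX peaks, was the posterior-most, chr2:176943871-176948707, with 4837 bp and a score of 652.1. In the gene table the coding gene next to HOXD13 on the posterior side is EVX2, itself a homeobox gene, and the peak was not assigned to either. The anterior-most peak, chr2:177052622-177054541, scored 291.47. The longest interval without a peak was 18890 bp (chr2:177006021-177024910), between peaks scoring 85.29 and 61.83, and no HOXD gap was 1 kb or shorter.

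**Figure D5:**
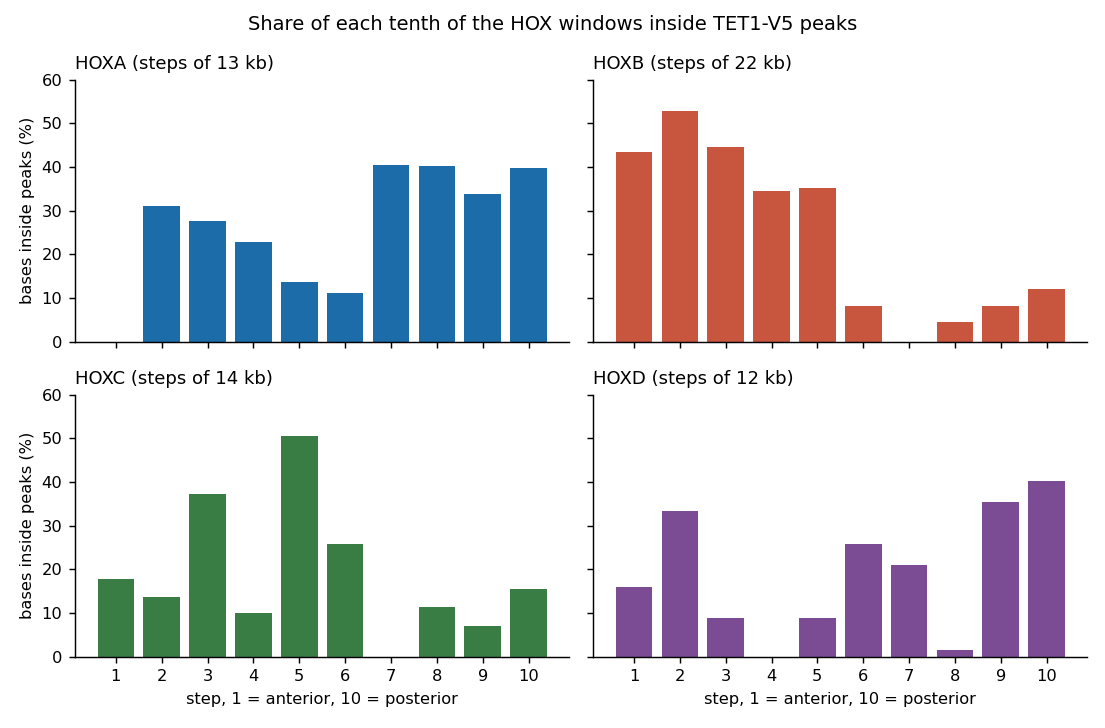
Percent of bases inside TET1 peaks in 10 equal steps of each window, from the anterior end (step 1) to the posterior end (step 10). HOXB falls from 35.2% in step 5 to 8.27% in step 6, while HOXA stays between 33.8% and 40.4% in steps 7 to 10.

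Neighbouring HOX peaks were mostly more than 1 kb apart, as were those of the whole list. The median gap between neighbouring peaks was 3609 bp over 73 gaps, against 13153 bp over the list. The HOX gaps leave out those across window edges, while the list holds every gap, up to 31924108 bp, so the 2 sets of gaps are not alike. Gaps of 1 kb or less made up 16.4% of HOX gaps (12 of 73) and 11.9% of those in the list. Joining peaks across such gaps gave 10 strings of 22 peaks, 5 in HOXB, 3 in HOXC, 2 in HOXA and none in HOXD. The longest was chr17:46627277-46634077 (6801 bp, highest score 551.09), followed by chr17:46669211-46675998 (6788 bp, 246.95) and chr17:46618406-46624718 (6313 bp), which contains the strongest HOX peak. In HOXC the longest was chr12:54422693-54428958 (6266 bp, 3 peaks). After joining, 6 of 65 HOX stretches (9.23%) were 5 kb or wider, and 6.40% of 40723 in the list. Whether the HOX shares of short gaps or of wide stretches differ from those of the list was not tested.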

How the data were processed

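The authors deposited 1 peak list of the V5 ChIP library over input. Per the submitters' processing notes, the aligner was BWA 0.7.17 on hg19. The peak names in the file point to MACS as the caller; which version ran is not given in the sources used here, nor are its settings or the conditions of the ChIP. Each peak's score is the authors' deposited value; its form resembles minus 10 times the logarithm of a p-value, but no header states it, and it was used only to describe and rank peaks. Peaks mapped to phage sequence (1 of 46208) were left out.

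The 4 windows came from the rule for the clusters. A peak counted when it overlapped by 1 base or more, and covered bases were clipped to the window. Each window was cut at its middle and into 10 steps. Tiles began at a chromosome's first peak and stopped at its last. Poisson, Wilson and median intervals are at 95%. Scripts used scipy 1.17.1, numpy 2.4.6, pandas 2.3.3 and matplotlib 3.10.9 under Python 3.11.15 and were tested on simulated peaks. No test between groups was possible with 1 library each, and no p-value is given. Peaks named are the strongest and widest of each cluster, those at window ends and those beside the longest peak-free interval; others among the 77 were named after their values were seen. A list of HOX partners and promoter overlaps, which needed hg19 annotation, was not analysed here. The clusters, the named genes and the analyses were chosen with earlier results of these data known. Promoters come from RefSeq (GRCh38.p14); no promoter sequence was used for HOXA5, HOXB2 to HOXB9, HOXB13, HOXC6, HOXC8 to HOXC13 and HOXD9.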

Additional observations from a re-analysis of the deposited data

How the results depend on the processing

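The 9 results were recomputed under 7 settings, giving 63 values. Of these, 52 stayed within 1.5 times (peak number) or within the interval of the main value, 11 did not, and 0 changed sign. Only the differences between sides could change sign, since the other results cannot be negative. For covered percent and the differences between sides, that interval was scaled from the Poisson interval of the peak number. The 11 follow from the setting itself, as fewer or longer peaks remain. With only peaks scoring 100 or more, 48 HOX peaks with a median width of 1952 bp covered 17.01% of the windows. The upper 50% by score left 32 peaks (2358 bp, 12.6% covered) and the top 25% left 4 (3338 bp, 2.26%), where the anterior minus posterior difference of HOXB was 7.47 percentage points in place of 35.6. The intervals of the differences in HOXA, HOXC and HOXD contain 0, so staying inside them shows little: HOXC went from 13.9 points to 2.44 in the upper 50% and to 0 in the top 25%, with no peak left. In the top 25% HOXA went from -14.1 to -4.61 and HOXD from -11.4 to -4.32. Merging peaks up to 1 kb apart raised the share 5 kb or wider to 9.23%. Narrowing windows by 10 kb or widening them by 20 kb at each end, or taking only peaks wholly inside, moved nothing. In all 7 settings HOXB was covered more on its anterior side, and HOXA and HOXD more on the posterior side. No HOX peak was at the ceiling in any of them, but only widening the windows could have brought one in. The depth behind peaks is unknown, so how many reads separate a weak peak from none is not known. No paired analysis was possible because ChIP and input hold a single library apiece.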
